A study of Homo sapiens with 6 samples.

Results

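The state of unperturbed HT-29 cells was read from the siNT libraries, the non-targeting control of an siRNA experiment. They are 2 of the 6 RNA-seq libraries of the series, chosen by their label alone, and no library with an lncRNA KD enters any value. HT-29 is an established line grown from a human colon adenocarcinoma. The cells were transfected with a control siRNA pool using DharmaFECT 4 and harvested after 48 h, at 10 nM siRNA according to the sample labels, while the study's methods state another dose. Libraries were made from poly(A) RNA with the SENSE mRNA kit of Lexogen. No untransfected cells were analysed here, so the values describe HT-29 cells that had taken up lipid reagent and siRNA. The labels number the libraries as replicates and do not say whether they came from separate cultures, so the spread between them may be technical.

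The colon is lined by a single layer of epithelial cells that arise from stem cells at the base of crypts and mature into absorptive colonocytes or into secretory goblet, enteroendocrine and tuft cells. The lineage is set by homeodomain, HNF, GATA and KLF transcription factors, and mature cells are recognised by their mucins, transporters, hormones and keratins. Colon cancer lines keep parts of this program to different extents. HT-29 is used as a model of enterocytic and mucus-secreting differentiation because it stays largely undifferentiated in standard medium and can be driven towards either fate.

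Levels are given as TPM, a unit of transcript abundance corrected for gene length that sums to the same total in each library, so genes can be compared with each other. Each gene is given by its TPM in replicate 1 and then in replicate 2, and ± is the SD of both (n = 2). The deeper library held 26263938 expected counts and the other 15998518. A gene with 0 counts may still have been present at up to 3 counts, which for a protein-coding gene of median length is 0.0671 TPM in replicate 1 and 0.106 TPM in replicate 2. This limit covers counting error only. A gene is called expressed at 1 TPM or more in both libraries.

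Gene levels differed little between the libraries. Over the 12334 genes with at least 10 expected counts in both, Pearson's r of log2 TPM was 0.992 and Spearman's rho 0.993 across genes, which are not independent replicates. The log2 ratio of replicate 1 to replicate 2 had an SD of 0.31, and 128 genes (1.04%) were at least 2-fold apart. The SD fell from 0.53 for the 925 genes with a mean under 1 TPM to 0.36 between 1 and 10 TPM, 0.22 between 10 and 100 TPM and 0.13 for the 150 genes from 1000 TPM upwards. Counting error alone would give 0.44 in the lowest of these classes and 0.0186 in the highest. The libraries were therefore not copies of each other.

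**Figure D1:**
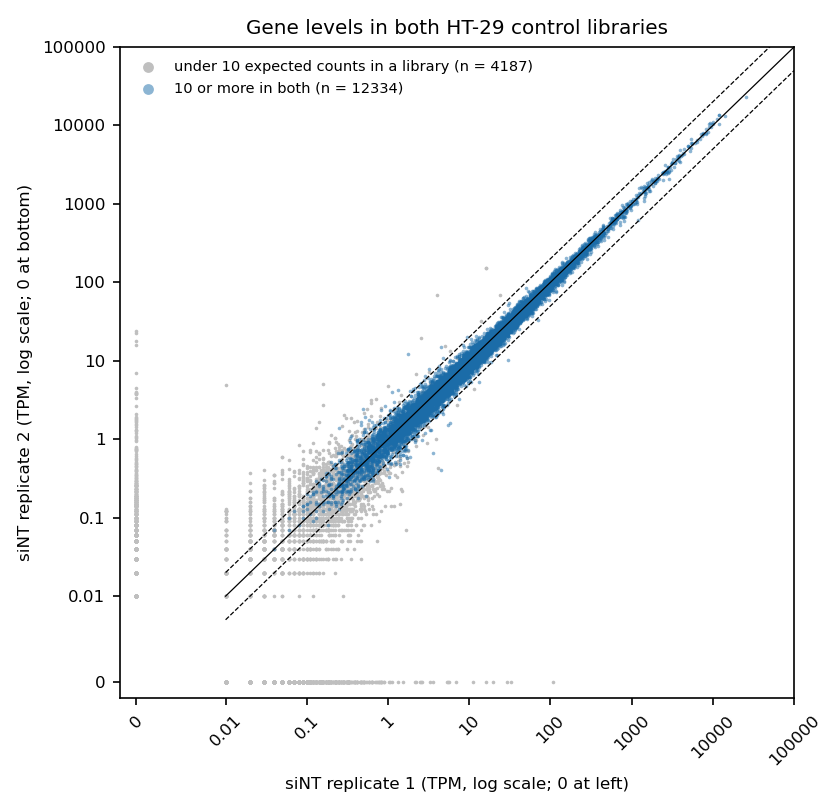
TPM of each gene in siNT replicate 1 (x axis) against replicate 2 (y axis), both on log scales with values of 0 drawn apart at the edge. The solid line marks equal levels and the dashed lines 2-fold differences. The 12334 genes with 10 or more expected counts in both libraries (blue) lie along the line, and 128 of them lie on or beyond the dashed lines.

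The difference between the libraries moved with base composition. Genes whose longest transcript had under 40% GC had a median log2 ratio of 0.29 (1888 genes), and genes over 60% GC had a median of -0.16 (1591 genes). Across the 11662 genes with a GC value the correlation was -0.51 (Pearson) and -0.59 (Spearman), given as a description since all points come from the same pair of libraries. The part of GC content in any single gene's difference was not tested. Among genes at 10 TPM or more in both, the furthest apart with replicate 1 higher were a row of SMN1 (30.0 and 10.4 TPM), NDUFB6 (70.1 and 33.6 TPM), RPL9 (1183 and 627 TPM), CCNC (21.9 and 11.8 TPM) and WASHC4 (21.4 and 11.9 TPM). SMN1 has a near-identical copy in the genome, so its row is uncertain. With replicate 2 higher, the furthest apart were the small RNA genes RNU6-2 (16.3 and 152 TPM), which holds 2 rows with the same values, SNORA27 (24 and 68.6 TPM) and SNORA67 (13.9 and 31.8 TPM), and then GUSBP1 (10.5 and 18.9 TPM). The small RNA values rest on few counts: 1.5 and 9 for RNU6-2, 7 and 13 for SNORA27, and 6 and 9 for SNORA67.

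Of 27434 rows in the files, 11291 (41.2%) reached 1 TPM in both libraries, 6347 reached 10 TPM, 1073 reached 100 TPM and 147 reached 1000 TPM. No count was found in either library for 10890 rows (39.7%). Of the 19088 protein-coding rows, 10269 (53.8%) were expressed, 6009 (31.5%) reached 10 TPM and 5404 (28.3%) were at 0 in both, and the median of their mean TPM was 2.19. These shares of coding rows are the background for the gene lists described here. The calls differed between the libraries for 278 coding rows, which were at 1 TPM or more in 1 library only. Coding rows at 0 in replicate 1 but not in replicate 2 numbered 358, and 746 showed the reverse, the second library being the shallower. Of the 4381 lncRNA rows, 529 (12.1%) were expressed and 2591 (59.1%) were at 0.

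Ribosomal proteins and ferritin filled most of the highest ranks. FTH1, the heavy chain of the iron store ferritin, was the most abundant gene at 25592 and 23101 TPM (24346 ± 1762), and its value in each library lay above every other gene. The light chain gene FTL was at 10143 and 11049 TPM, so that FTH1 made up 69.6% ± 2.81 of the ferritin transcripts. Of the 25 rows of highest mean, 21 were cytosolic ribosomal proteins, among them RPLP1 (11907 and 13600 TPM), RPL41 (11831 and 13415 TPM) and RPS16 (11230 and 11982 TPM). The others were the ferritin genes, MTRNR2L2 and the cytoskeletal actin ACTB (9580 and 9694 TPM). MTRNR2L2 (11770 and 10545 TPM) is a nuclear copy of the mitochondrial 16S rRNA gene, and reads of the mitochondrial transcript may be counted there, so its level is uncertain. The order is loose: in 19 of the 24 pairs of neighbours among these 25 rows the values of the libraries overlapped. FTH1, ACTB, RPL39, RPS15A and RPS21 were the rows whose lower value exceeded both values of the next.

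The 10 most abundant rows took 12.7% ± 0.192 of all TPM, the 100 most abundant 48.6% ± 0.759 and the 1000 most abundant 78.9% ± 0.602. Cytosolic ribosomal proteins, which build the cytoplasmic ribosome, took 33.7% in replicate 1 and 34.6% in replicate 2. As a share of expected counts, which are not corrected for the short length of these genes, it was 13.8%. Of their 87 rows, 84 were expressed and 70 reached 1000 TPM in both. Nearly all other subunits of general machinery were expressed too: 77 of 77 mitochondrial ribosomal protein rows (0.767% of TPM), 80 of 88 rows of nuclear-encoded respiratory chain subunits (3.73%), 36 of 39 proteasome rows (0.58%), 37 of 37 aminoacyl-tRNA synthetases and 9 of 9 chaperonin CCT rows.

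Outside the ribosome, the abundant genes included several calcium-binding S100 genes and translation factors. S100A6 was at 5386 and 6731 TPM, the translation elongation factor gene EEF1A1 at 5556 and 5868 TPM, the glycolytic enzyme gene GAPDH at 4990 and 5490 TPM, and S100P, an S100 gene often high in gastrointestinal carcinomas, at 4432 and 4946 TPM. S100A11 (3864 and 4082 TPM), S100A10 (2585 and 2639 TPM) and S100A4 (1634 and 1556 TPM) also passed 1000 TPM. Together the 19 S100 rows took 1.94% ± 0.145 of TPM, 11 of them were expressed (57.9%, near the 53.8% of all coding rows) and 6 were at 0. The spread of S100A6 was large for its level (6059 ± 951), so its place above EEF1A1 is not resolved.

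The promoters of expressed and silent genes differed in base composition. RefSeq promoters on GRCh38.p14 (250 bases before to 50 after the start, the first listed start of each gene) could be matched to 14529 of the coding genes that stand alone on a row (80.2%). The median ratio of observed to expected CpG was 0.865 in the 4987 promoters of genes at 10 TPM or more in both libraries, 0.834 in the 3060 at 1 to 10 TPM, and 0.36 in the 3645 of genes at 0 in both, against 0.58 over all 27305 promoters of the table. Median GC content was 65.3%, 65.3%, 55.3% and 58.3% in the same sets. Letters were searched on both strands. The GC box GGGCGG was found in 71.8% of promoters at 10 TPM or more, 36.1% of those at 0 and 44.6% of all. The TATA box TATAAA was found in 5.39%, 17.8% and 12%, and in 13% of the 100 promoters of highest mean TPM. CCAAT was found in 37.9%, 35.4% and 35.7%. CCATAAA is a CDX binding site named by the study. These letters were found in 1.42%, 3.35% and 2.66%, and in 4% of the 100 promoters of highest mean TPM. That last share rests on 4 promoters, too few for a comparison. The E-box CACGTG was in 10.5%, 6.04% and 7.43%. The sets by level hold coding genes only, and over all 14529 matched coding genes the median CpG ratio was 0.771, with GGGCGG in 59.7%, TATAAA in 9.47%, CCAAT in 36.2%, CCATAAA in 2.03% and CACGTG in 8.80%. A match is a description of the letters and not a bound site, and none of these motifs contains another.

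The promoters below show how differently built genes lay at both ends of the range, from a ribosomal protein to a silent colonocyte gene. They are printed in the direction of transcription, in lower case, with the motifs named above in capitals. RPLP1 lies at chr15:69452568-69452867 on the plus strand, S100P at chr4:6693628-6693927 (plus), KRT20 at chr17:40885193-40885492 (minus), KLF5 at chr13:73054726-73055025 (plus), CDX2 at chr13:27969266-27969565 (minus) and MS4A12 at chr11:60492528-60492827 (plus), all on GRCh38.p14 from RefSeq.
RPLP1: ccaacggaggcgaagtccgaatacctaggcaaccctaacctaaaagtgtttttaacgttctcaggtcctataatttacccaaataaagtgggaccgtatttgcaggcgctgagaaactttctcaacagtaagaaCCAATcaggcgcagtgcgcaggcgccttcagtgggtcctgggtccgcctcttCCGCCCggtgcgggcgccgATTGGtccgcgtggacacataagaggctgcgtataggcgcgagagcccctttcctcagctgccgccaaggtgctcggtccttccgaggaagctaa
S100P: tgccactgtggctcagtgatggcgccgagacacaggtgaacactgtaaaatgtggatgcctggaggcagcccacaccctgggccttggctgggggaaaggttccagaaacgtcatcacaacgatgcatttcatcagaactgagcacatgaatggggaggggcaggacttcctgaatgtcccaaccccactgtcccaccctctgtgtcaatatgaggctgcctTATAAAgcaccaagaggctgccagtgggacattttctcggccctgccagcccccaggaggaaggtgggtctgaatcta
KRT20: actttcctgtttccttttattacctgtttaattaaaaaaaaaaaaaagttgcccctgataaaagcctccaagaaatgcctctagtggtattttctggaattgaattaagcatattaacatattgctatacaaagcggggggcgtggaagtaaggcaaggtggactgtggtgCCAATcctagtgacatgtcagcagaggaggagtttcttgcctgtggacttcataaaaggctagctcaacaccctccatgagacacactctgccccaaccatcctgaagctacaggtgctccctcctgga
KLF5: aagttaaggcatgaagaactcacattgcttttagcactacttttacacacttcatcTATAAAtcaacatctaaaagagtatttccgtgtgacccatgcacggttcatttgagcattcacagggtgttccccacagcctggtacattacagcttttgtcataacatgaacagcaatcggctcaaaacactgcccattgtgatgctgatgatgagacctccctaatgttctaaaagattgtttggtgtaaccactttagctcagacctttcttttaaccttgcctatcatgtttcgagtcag
CDX2: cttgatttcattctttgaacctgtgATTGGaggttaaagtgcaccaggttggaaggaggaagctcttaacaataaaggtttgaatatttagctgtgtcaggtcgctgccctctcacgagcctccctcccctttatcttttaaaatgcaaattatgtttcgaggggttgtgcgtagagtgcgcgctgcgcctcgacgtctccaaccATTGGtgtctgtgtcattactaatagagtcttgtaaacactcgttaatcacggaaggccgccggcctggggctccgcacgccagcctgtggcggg
MS4A12: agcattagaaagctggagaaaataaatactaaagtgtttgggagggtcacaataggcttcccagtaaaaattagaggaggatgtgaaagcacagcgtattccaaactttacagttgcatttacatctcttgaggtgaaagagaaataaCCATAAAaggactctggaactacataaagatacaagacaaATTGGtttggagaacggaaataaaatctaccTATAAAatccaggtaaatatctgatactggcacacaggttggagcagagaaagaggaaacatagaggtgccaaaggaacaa

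RPLP1, at 11907 and 13600 TPM, had a CpG-rich promoter (ratio 0.978) with CCAAT at -116, its complement at -45 and the complement of the GC box at -64, counted from the start at +1. S100P, at 4432 and 4946 TPM, had a CpG ratio of 0.213 and a TATAAA at -28. KRT20 (ratio 0.138) held CCAAT at -79 and no TATAAA, and KLF5 (ratio 0.331) held TATAAA at -194. CDX2 lay under 1 TPM with a CpG ratio of 0.844, above the median of 0.36 among silent genes, and held the complement of CCAAT at -225 and at -45. MS4A12, at 0 in both libraries, held CCATAAA at -102 and TATAAA at -31. Each promoter is that of the first listed start of its gene. Which start HT-29 cells use was not examined, so the level of a gene may come from another promoter.

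Most genes listed for colon epithelial identity were expressed at high levels. Of 22 such genes 21 were expressed, 19 reached 10 TPM and 15 reached 100 TPM, and the median of their mean TPM was 178, against 2.19 over all coding rows. The list joins genes of epithelia in general, such as KRT8, KRT18, EPCAM and CDH1, with intestinal ones. The count is therefore not a measure of colon identity alone. The simple-epithelium keratin KRT18 was at 3064 and 3208 TPM (3136 ± 101), its partner KRT8 at 546 and 667 TPM, KRT20, the keratin of differentiated intestinal epithelium, at 389 and 330 TPM, and KRT19 at 266 and 276 TPM. KRT18 thus accounted for 71.7% ± 0.177 of the transcripts of these 4 keratins. LGALS4, an intestinal lectin, was at 1715 and 1806 TPM, and AGR2, a disulfide isomerase of mucus-secreting cells, at 1083 and 1003 TPM. The epithelial adhesion genes EPCAM (423 and 392 TPM) and CDH1 (268 and 248 TPM) and the carcinoembryonic antigen genes CEACAM5 (140 and 131 TPM) and CEACAM6 (123 and 117 TPM) were all above 100 TPM in both libraries.

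The same list held exceptions at its lower end. VIL1, which bundles actin in microvilli, was at 31.5 and 35.0 TPM, and the intestinal cadherin CDH17 at 10.4 and 9 TPM. CEACAM7 was at 1.01 and 1.36 TPM. GPA33, which encodes a surface antigen of normal and malignant colon, was the member that was not expressed, at 0.37 and 0.23 TPM from 18 and 7 counts.

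**Figure D2:**
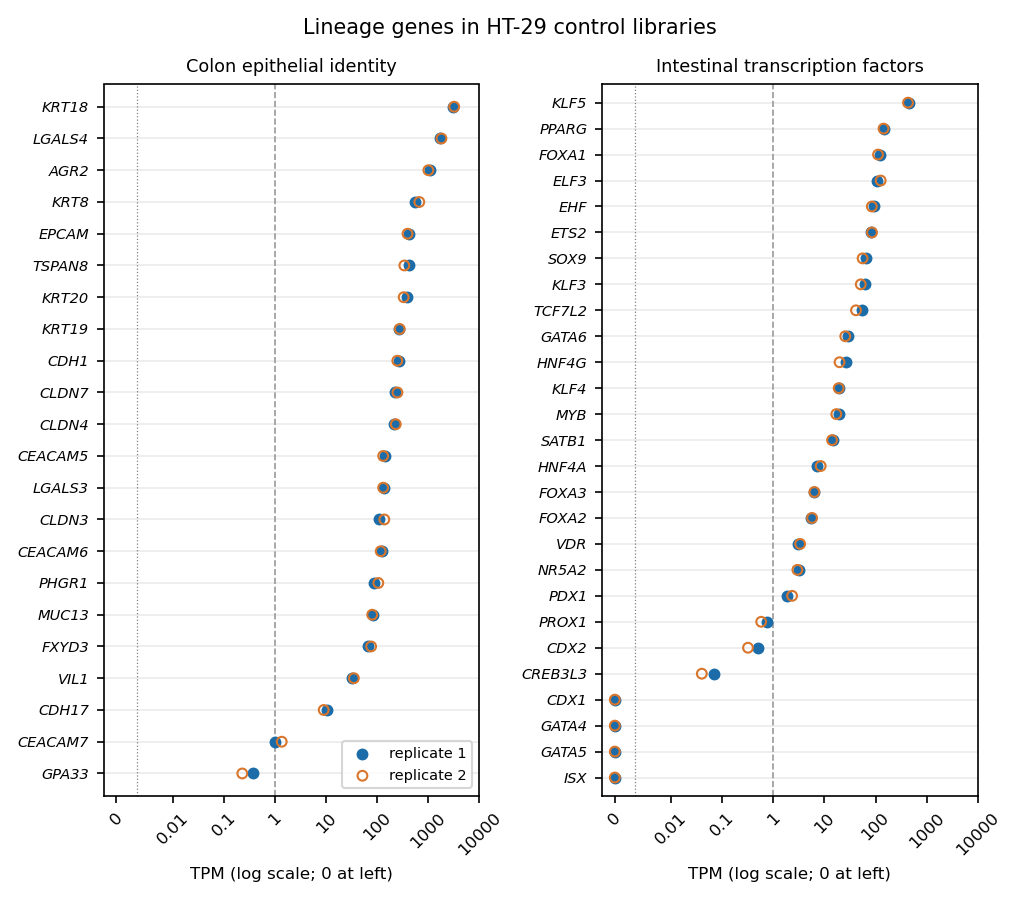
TPM of colon epithelial identity genes (left) and 27 of the 30 intestinal transcription factors (right) in siNT replicate 1 (filled) and replicate 2 (open), on a log scale with 0 drawn apart and a dashed line at 1 TPM. Over both libraries genes of colon identity run from 3208 TPM (KRT18) to 0.23 TPM (GPA33), and 4 transcription factors, CDX1 among them, lie at 0.

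Intestinal transcription factors were split between high levels and absence. Of 30 factors 22 were expressed, 15 reached 10 TPM and 4 were at 0 in both. KLF5, a zinc finger factor of proliferating crypt cells, led at 451 and 431 TPM, followed by the nuclear receptor PPARG (147 and 143 TPM), the pioneer factor FOXA1 (124 and 112 TPM) and the epithelial ETS factor ELF3 (107 and 126 TPM). FOXA1 and ELF3 overlapped and could not be ordered. SOX9, a factor of the crypt base, was at 64.2 and 55.8 TPM and GATA6 at 29.4 and 25.6 TPM. Of the HNF4 pair HNF4G (26.7 and 19.8 TPM) lay above HNF4A (7.23 and 8.45 TPM) in both libraries.

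The CDX factors were at or near 0. CDX1 had no count in either library, which allows up to 0.101 and 0.160 TPM. CDX2, the homeodomain factor that specifies intestine, was at 0.50 and 0.32 TPM from 20 and 8 counts. GATA4, GATA5 and ISX were at 0. The genes chosen for colon identity and lineage were thus met unevenly. The keratins named above, EPCAM, CDH1, LGALS4 and KLF5 were high. CDH17 and CEACAM7 were far lower, and GPA33, the CDX factors, GATA4, GATA5 and ISX were not expressed. In bulk RNA, fewer cells with a gene and less RNA per cell cannot be told apart.

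Stem cell and mature cell genes were expressed in part. Of 20 genes of the crypt base 10 were expressed (50%, near the 53.8% of all coding rows), led by the adhesion receptor CD44 (132 and 149 TPM) and the joined row of BMI1 and COMMD3 (144 and 131 TPM), which does not separate the genes. RNF43 (18 and 19 TPM) and ZNRF3 (7.97 and 7.43 TPM), ubiquitin ligases that restrain Wnt receptors, and AXIN2 (5.46 and 4.18 TPM) were expressed. The stem cell receptor LGR5 was at 0.73 and 0.63 TPM and its partner factor ASCL2 at 0.35 and 0.56 TPM. OLFM4, another marker of crypt base columnar cells, was at 0, which allows up to 0.0598 and 0.0944 TPM.

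Of 20 goblet cell genes 11 were expressed (55%, also near the share of all coding rows) and none reached 100 TPM. The factors CREB3L1 (46.6 and 40.6 TPM) and SPDEF (16.9 and 18.4 TPM) and the secreted proteins SPINK4 (23.2 and 24.9 TPM) and TFF3 (8.72 and 12.2 TPM) were present, while the main secreted mucin MUC2 was at 4.75 and 2.73 TPM. ATOH1, the factor that commits cells to the secretory lineage, was at 0.12 and 0.37 TPM, and CLCA1 and ITLN1 were at 0. Among 17 mucin rows 6 were expressed, the highest being the membrane-bound MUC13 (81.7 and 79.9 TPM) and MUC20 (75.7 and 71.9 TPM). The gastric mucin MUC5AC (4.87 and 4.01 TPM) lay close to MUC2.

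Absorptive genes were mostly silent. Only 4 of 24 colonocyte genes were expressed: the adhesion gene CEACAM1 (79.4 and 70.6 TPM), the steroid dehydrogenase HSD17B2 (12.9 and 15.9 TPM), the sodium-proton exchanger SLC9A3 on a row joined with its antisense transcript (8.90 and 9.47 TPM) and the peptide hormone GUCA2A (1.47 and 1.15 TPM). Carbonic anhydrases CA1 and CA4, the chloride exchanger SLC26A3, the water channel AQP8 and MS4A12, whose promoter is shown above, were at 0 in both libraries. Of 29 enterocyte and brush border genes 9 were expressed. These were led by the structural genes EPS8 (110 and 96.4 TPM), PLS1 (112 and 85.5 TPM), EZR (51.7 and 59.8 TPM) and USH1C (26.7 and 26.6 TPM), which organise actin or membrane links in microvilli. The digestive and lipid-handling genes FABP2, ALPI, LCT, ANPEP, APOB and MTTP were at 0. The protease DPP4 (15.2 and 13.0 TPM) and the glucose transporter SLC5A1 (6.23 and 5.89 TPM) were the enzymes and carriers of the list with the highest levels.

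Genes of the rarer lineages were mostly under 1 TPM. All 23 enteroendocrine genes lay under 1 TPM and 13 were at 0, among them the granule protein CHGA and NEUROD1, while the lineage factor NEUROG3 was at 0.34 and 0.62 TPM. Of 14 tuft cell genes the lipoxygenase ALOX5 (21.1 and 19.9 TPM) and the cytokine receptor IL17RB (2.18 and 2.71 TPM) were expressed in both libraries. DCLK1 was at 0 and POU2F3 at 0.75 and 1.16 TPM, and 4 of the 14 reached 1 TPM in replicate 2. Of 8 Paneth cell genes with a row, LYZ, which encodes lysozyme, was at 1404 and 1194 TPM and the matrix protease MMP7 at 159 and 135 TPM, while the defensins DEFA5 and DEFA6 were at 0.

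**Figure D3:**
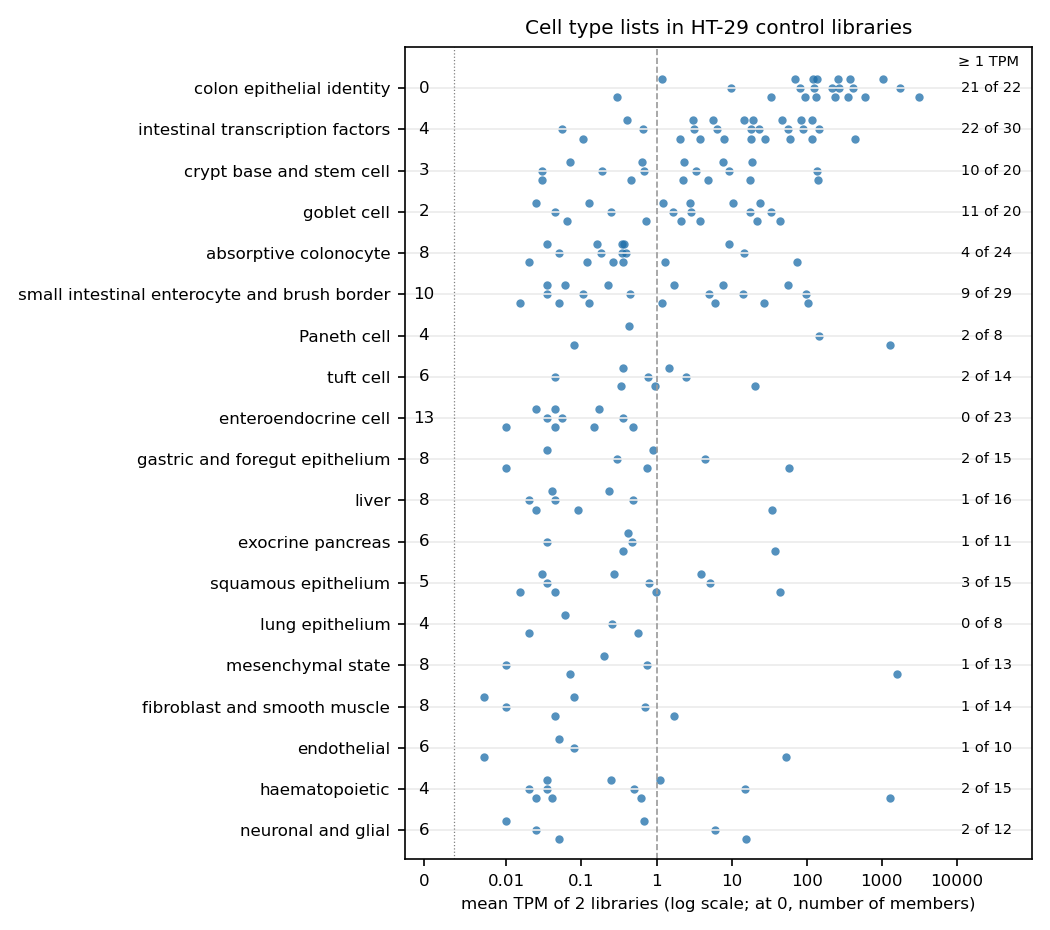
Mean TPM over both siNT libraries of each member of 19 cell type lists (rows), on a log scale with a dashed line at 1 TPM. The number at the position of 0 counts the members at 0 in both libraries, and the text at the right gives how many of the members with a row reached 1 TPM in both. Colon epithelial identity (21 of 22) and intestinal transcription factors (22 of 30) stand above the mature lineages, of which enteroendocrine genes show 0 of 23.

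Most listed markers of other tissues were at or near 0, with single exceptions in each list. Of 14 fibroblast and smooth muscle genes only TAGLN (2.06 and 1.35 TPM) was expressed and 8 were at 0, and the collagen genes COL1A1 (0.07 and 0.09 TPM) and COL3A1 (0 in both) were at background. Among 10 endothelial genes the adhesion gene ESAM (52.1 and 55.3 TPM) was the exception, with PECAM1 at 0 and 0.10 TPM and VWF and KDR at 0. Of 15 haematopoietic genes LYZ and the lysosomal CD68 (16 and 14.2 TPM) were expressed, and the pan-leukocyte gene PTPRC was at 0 and 0.07 TPM. The summed TPM of the fibroblast list was 3.23 and 1.88, whereas those of the endothelial (52.2 and 55.5) and haematopoietic (1423 and 1211) lists came almost wholly from ESAM and LYZ. Of 12 neuronal and glial genes MBP (16.3 and 14.6 TPM) and TUBB3 (5.56 and 6.38 TPM) were expressed.

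Epithelia of other organs were equally faint. Of 16 liver genes SERPINA1 (32.8 and 35.4 TPM) alone was expressed, of 11 exocrine pancreas genes PRSS1 (39.4 and 35.9 TPM), whose paralogs are similar enough for its reads to be uncertain, and of 8 lung genes none. Of 15 gastric and foregut genes with a row, TFF1 (59.7 and 55.5 TPM), a peptide of gastric surface mucus, and MUC5AC were expressed. Of 15 squamous genes with a row KRT10 (45.6 and 43.3 TPM), SPRR1B (4.25 and 6.15 TPM) and KRT13 (3.50 and 4.31 TPM) were expressed, and TP63 and KRT5, which define basal squamous cells, were at 0.

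The mesenchymal state was not seen. Of 13 genes linked to it 12 lay under 1 TPM in both libraries and 8 were at 0, including the cadherin CDH2, the factors SNAI2, TWIST1 and ZEB2 and fibronectin FN1. The intermediate filament gene VIM was at 0.14 TPM in replicate 1 from 5 counts and at 0 in replicate 2. The exception was S100A4, at 1634 and 1556 TPM.

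Among the signalling lists AREG, a ligand of the EGF receptor, was the gene of highest level. EGF family ligands bind receptors of the ERBB family, which signal through RAS and ERK. AREG was at 491 and 517 TPM and EREG at 178 and 154 TPM, so that AREG made up 71.6% ± 2.71 and EREG 23.6% ± 2.41 of the 7 EGF receptor ligands. TGFA (23.0 and 20.8 TPM), BTC (6.76 and 4.97 TPM) and HBEGF (5.33 and 6.30 TPM) were lower, and EGF itself was at 0.32 in both. The receptors EGFR (62.1 and 57.5 TPM), ERBB3 (51.2 and 48.4 TPM) and ERBB2 (18.4 and 22.8 TPM) were expressed and ERBB4 was at 0, as were the neuregulins NRG1, NRG2 and NRG3. All 24 kinases and feedback genes of the RAS and ERK pathway were expressed, led by SPRED2 (102 and 90.2 TPM), PHLDA1 (77.9 and 64.7 TPM) and ETV4 (67.4 and 72.8 TPM). NRAS (64.6 and 51.3 TPM) exceeded HRAS (20.8 and 27.9 TPM) in both libraries, and ARAF (54.1 and 53.3 TPM) exceeded BRAF (16.8 and 15.9 TPM).

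**Figure D4:**
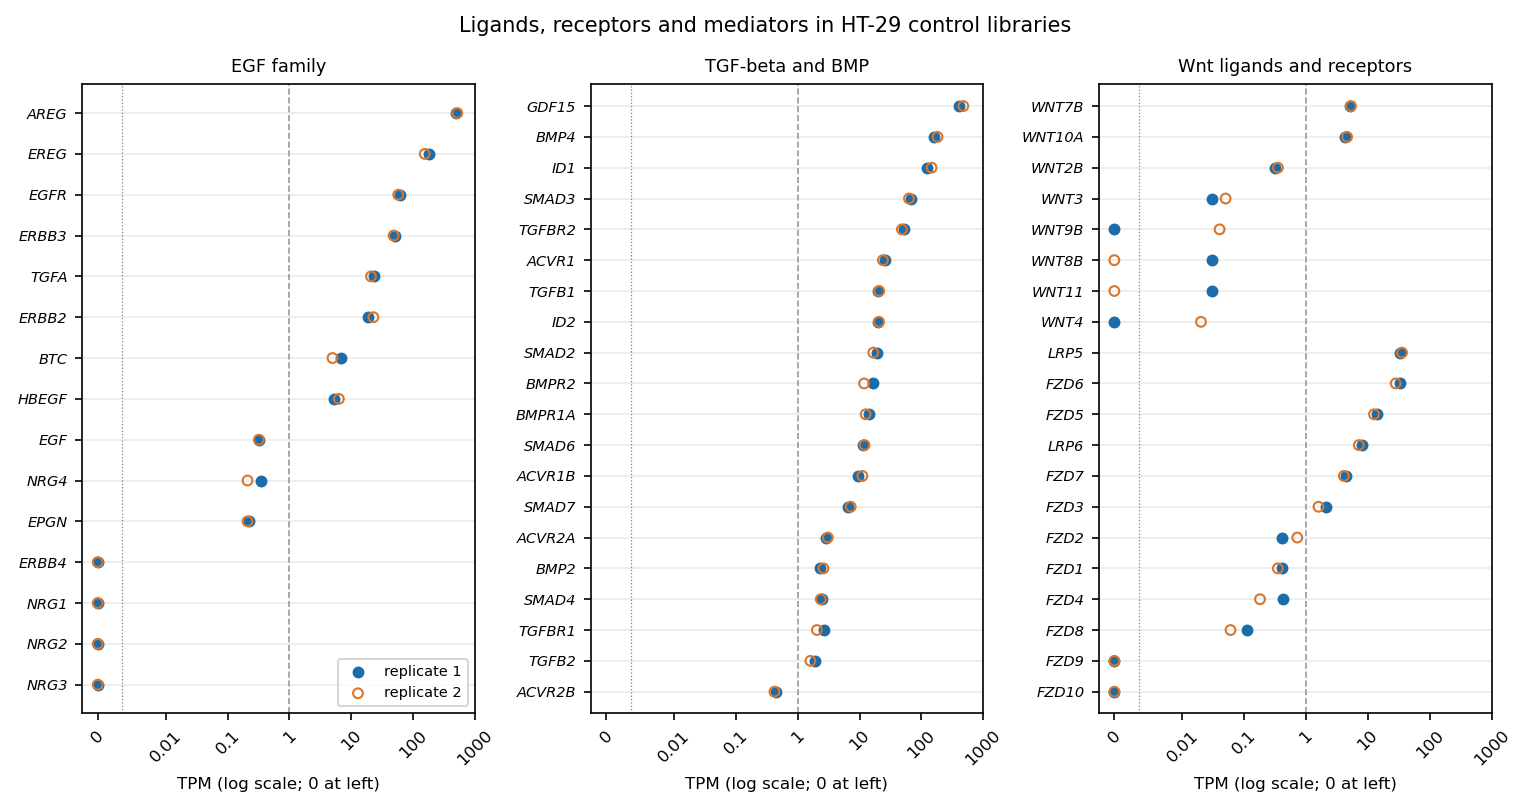
TPM in siNT replicate 1 (filled) and replicate 2 (open) of EGF family genes (left), the 20 most abundant TGF-beta and BMP genes (middle) and the 8 most abundant Wnt ligands with all Frizzled and LRP receptors (right), on a log scale with 0 drawn apart and a dashed line at 1 TPM. AREG is highest of the first panel, at 491 and 517 TPM, and of the Wnt ligands only WNT7B and WNT10A pass 1 TPM.

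Of 27 TGF-beta and BMP genes 19 were expressed (70.4%, against 53.8% of all coding rows), and the list summed to 963 and 1064 TPM. The 15 EGF receptors and ligands summed to 837 and 833 TPM. The lists differ in size and GDF15 holds much of the first sum, so the sums do not rank the pathways. The ligand genes GDF15 (404 and 476 TPM) and BMP4 (159 and 182 TPM) and the BMP target ID1 (122 and 146 TPM) led, and replicate 2 was higher for each of them. Among the signal transducers SMAD3 (68.6 and 62.9 TPM) and SMAD2 (19.1 and 16.7 TPM) lay well above the common mediator SMAD4 (2.49 and 2.36 TPM). The type II receptor TGFBR2 was at 53.0 and 48.4 TPM and the type I receptor TGFBR1 at 2.63 and 2.04 TPM. ID3 (0.35 and 0.08 TPM) stayed under 1 TPM, unlike ID1 and ID2 (19.6 and 20.6 TPM).

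Few Wnt ligands were expressed, while Wnt receptors and the list of effectors and inhibitors lay near the 53.8% of all coding rows. Only 2 of 19 Wnt ligands were expressed, WNT7B (5.14 and 5.32 TPM) and WNT10A (4.28 and 4.61 TPM), and 11 were at 0. Of 12 receptors 6 were expressed (50%), led by LRP5 (32.7 and 35.6 TPM), FZD6 (32.7 and 28.1 TPM) and FZD5 (14.0 and 12.6 TPM). The carrier WLS, needed for Wnt secretion, was at 65.0 and 66.3 TPM, CTNNB1, which encodes beta-catenin, at 40.7 and 42.9 TPM, and APC at 11.2 and 9.81 TPM. Of the nuclear TCF factors TCF7L2 (53.2 and 41.4 TPM) and TCF7 (25.2 and 26.8 TPM) were expressed, TCF7L1 was at 0.12 and 0.19 TPM and LEF1 at 0. The secreted inhibitors SFRP1, SFRP2, SFRP4, SFRP5, WIF1, DKK2, DKK3 and DKK4 were at 0 and NOTUM was at 0.11 and 0.08 TPM, while DKK1 was at 38.8 and 39.1 TPM. In all, 13 of the 24 effectors and inhibitors were expressed (54.2%).

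Other pathways were present in part. Of 16 Notch genes 7 were expressed (43.75%, against 53.8% of all coding rows). NOTCH2 (15 and 13.9 TPM) lay above NOTCH1 (2.07 and 2.08 TPM). The ligand JAG1 was at 16.5 and 14.9 TPM and the target HES1 at 44.4 and 38.1 TPM. Of 11 Hedgehog genes 5 were expressed (45.5%). The ligand SHH was at 9.78 and 7.89 TPM, while SMO, the membrane protein that transmits the signal, had no count, which allows up to 0.0462 and 0.0731 TPM. Of 19 Hippo genes 16 were expressed, and the coactivator YAP1 (53.7 and 47.6 TPM) and all of TEAD1 to TEAD4 (15.1 to 59.9 TPM) stood against its paralog WWTR1 at 0.05 and 0.02 TPM.

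Immune and hormone signalling genes differed by group. Of 26 chemokine and interleukin genes 11 were expressed (42.3%, against 53.8% of all coding rows). The highest, IL18 (33.3 and 30.4 TPM) and CXCL16 (14.9 and 14.2 TPM), were the ones above 10 TPM. CXCL8 was at 1.72 and 1.78 TPM, and IL6, IL1A and CCL2 were at 0. Interferon-stimulated genes were expressed for 18 of 23, led by ISG15 (56.8 and 60.2 TPM), BST2 (43.9 and 51.5 TPM), IFI27 (25.6 and 29 TPM) and OASL (21.2 and 21.7 TPM), with MX1 at 0.78 and 0.46 TPM. No library without transfection bears on whether siRNA delivery affects these genes. Of 48 nuclear receptors 26 were expressed (54.2%, near the share of all coding rows). PPARG led, then NR1D2 (35.3 and 28.4 TPM), NR1D1 (30.0 and 30.7 TPM) and NR2C1 (31.9 and 26.7 TPM), which overlap, while the steroid receptors NR3C1, ESR1 and PGR had no count.

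Most glycolytic steps were served by a leading isozyme. Of 26 genes 18 were expressed (69.2%). Aldolase came from ALDOA (865 and 984 TPM, 99.5% ± 0.134 of its isozymes), enolase from ENO1 (800 and 842 TPM, 99.5% ± 0.00833) and pyruvate kinase from PKM (605 and 632 TPM), with the liver form PKLR at 0. Hexokinase was mostly HK1 (22.7 and 22.5 TPM, 85.9% ± 0.12) and phosphofructokinase mostly PFKP (79.5 and 82.1 TPM, 81.6% ± 1.25). Lactate dehydrogenase was shared, LDHB at 756 and 687 TPM making up 55.6% ± 1.9 and LDHA at 571 and 578 TPM the rest. Of 15 sugar and lactate carriers 7 were expressed (46.7%, against 53.8% of all coding rows). They were led by the glucose transporter SLC2A1 (114 and 119 TPM) and the lactate carrier SLC16A1 (52.0 and 42.2 TPM), while SLC2A3 and SLC2A4 were at 0.

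Several central carbon and biosynthetic pathways had every listed gene expressed. All 20 citrate cycle genes were expressed, led by MDH2 (407 and 452 TPM), as were all 16 genes of cholesterol synthesis, led by FDFT1 (140 and 142 TPM), and all 20 genes of glutamine, serine and one-carbon metabolism, led by the asparagine synthetase ASNS (440 and 418 TPM) and MTHFD2 (308 and 293 TPM). Of 8 pentose phosphate genes 7 were expressed, led by TALDO1 (723 and 779 TPM) and TKT (592 and 648 TPM), with TKTL1 at 0. Of 19 fatty acid genes 17 were expressed, led by the desaturase SCD (336 and 350 TPM) and ELOVL1 (226 and 247 TPM). ELOVL5, an elongase of polyunsaturated fatty acids, was at 0.02 and 0.37 TPM from 1 and 3 counts. In gluconeogenesis and ketone metabolism 7 of 12 were expressed (58.3%), a share near the 53.8% of all coding rows. The cytosolic enzyme gene PCK1 was at 0 and its mitochondrial counterpart PCK2 at 35.1 and 47.6 TPM, FBP1 was at 58.2 and 59.9 TPM and FBP2 at 0. OXCT1, which is needed to burn ketone bodies, had no count, which allows up to 0.0487 and 0.0769 TPM.

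Iron, redox and detoxification genes were the most abundant metabolic group. Of 27 such genes 23 were expressed, 16 reached 100 TPM and together they took 4.61% ± 0.111 of TPM, mainly as ferritin. The thioredoxin gene TXN was at 3417 and 3333 TPM, GPX2, the glutathione peroxidase of gut epithelium, at 2029 and 2092 TPM, GSTP1 at 1137 in both and the quinone reductase NQO1 at 751 and 792 TPM. ALDH1A1 (444 and 390 TPM) and AKR1B10 (253 and 234 TPM) were also high, whereas GSTM1 (0.06 and 0 TPM) and GSTA1 (0.04 and 0.08 TPM) were not expressed. Among 12 metallothionein rows 5 were expressed (41.7%, against 53.8% of all coding rows). MT2A (1442 and 1629 TPM) and MT1E (1236 and 1581 TPM) passed 1000 TPM.

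HOX genes, which keep the position of a cell along the body axis, were expressed from 3 of the 4 clusters. In HOXB 9 of 13 rows were expressed (69.2%, against 53.8% of all coding rows). HOXB9 (257 and 260 TPM) made up 59.1% ± 0.281 of the coding HOXB transcripts. The lncRNA HOXB-AS3, 1 of the 2 targets of the series, was at 39.6 and 41.3 TPM (40.5 ± 1.22), near HOXB7 (43.5 and 47.4 TPM) and above HOXB5 (27.1 and 27.1 TPM) and HOXB6 (29.9 and 30.1 TPM). In HOXA 12 of 14 rows were expressed (85.7%). They were led by the lncRNA HOTAIRM1 (68.0 and 76.1 TPM) and the joined row of HOXA9 and HOXA10 (42.3 and 42.2 TPM). HOXA5 was at 31.6 and 34.2 TPM and HOXA7 at 9.92 and 8.97 TPM. The other target, HOXA-AS3, was under the limit at 0.56 and 0.42 TPM, from 38 and 18 counts. Both lncRNAs overlap HOX genes on the other strand, and reads of the strands cannot be told apart if counting ignored strand. In HOXC 4 of 8 rows were expressed (50%, near the 53.8% of all coding rows). They were led by the joined row of HOXC4, HOXC5 and HOXC6 (17.6 and 16.2 TPM) and HOTAIR (10.8 and 10.5 TPM). In HOXD none of 10 was expressed and 8 were at 0, and PRAC1 and PRAC2, which lie beside the 5′ end of HOXB, were at 0.

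Whole families of tissue-restricted genes were silent. Families were taken by symbol pattern, and of 895 rows in the tissue-restricted families 50 were expressed, against 53.8% of all coding rows. These 50 include 10 keratins, 12 cytochrome P450s and 5 crystallins. All 18 late cornified envelope rows were at 0, as were 353 of 371 olfactory receptor rows, 87 of 92 keratin-associated protein rows, 35 of 36 beta-defensin rows, 16 of 17 type I interferon rows and 36 of 40 rows of GAGE, XAGE, PAGE, SSX and CT45 genes. The few exceptions were single genes. OR2A4 (7.20 and 5.75 TPM) and a row that joins OR2A7 with ARHGEF34P (9.70 and 10.8 TPM) were the olfactory receptors expressed, and these have close copies. KRTAP4-1 (7.67 and 8.22 TPM), DEFB1 (5.87 and 5.86 TPM) and IFNE (5.52 and 3.51 TPM) were the members of their families that were expressed. DEFB1 rests on 36 and 23 counts.

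Neuronal channel and receptor families followed the same pattern. None of 10 voltage-gated sodium channels was expressed, and of 40 voltage-gated potassium channels 2 were, KCNQ1 (2.62 and 2.71 TPM) among them. Of 19 GABA-A receptor rows 14 were at 0, but the epsilon subunit GABRE stood at 48.4 and 44.1 TPM and the pi subunit GABRP at 2.95 and 3.01 TPM. Of 18 ionotropic glutamate receptors GRIN2D alone was expressed, at 15.2 and 14.4 TPM. Bitter taste receptors were expressed for 4 of 24 rows, the highest a joined row with salivary protein genes (18.5 and 20.6 TPM). Of 23 MAGE rows MAGEA12 (4.53 and 5.76 TPM) and MAGEA3 (3.43 and 4.71 TPM) were expressed, and none of 10 globin rows was.

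**Figure D5:**
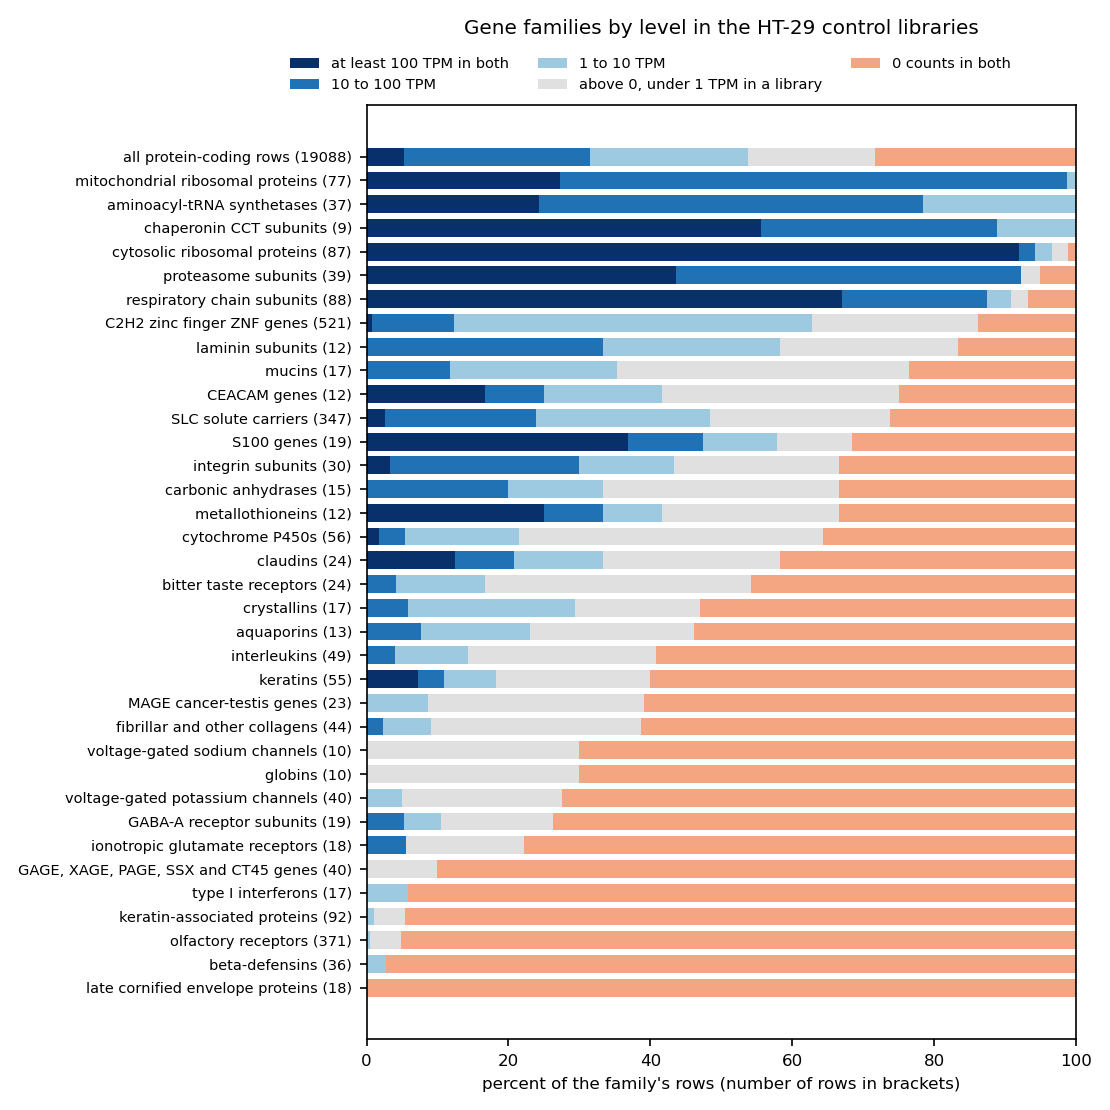
Share of the rows of each gene family (percent; number of rows in brackets) by level in the siNT libraries: at least 100 TPM in both, at least 10, at least 1, above 0 but under 1 TPM in a library, and 0 counts in both. Families are ordered by their share at 0 below all protein-coding rows (28.3% at 0), from mitochondrial ribosomal proteins, with none at 0, to late cornified envelope proteins, with all 18 at 0. The interleukin pattern also takes receptor genes such as IL4R, the integrin pattern takes ITGB1BP1 and the crystallin pattern takes CRYBG1, CRYBG2 and CRYBG3.

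Families with known roles in epithelia, and other families with a few expressed members, differed in the share expressed. Of 55 keratin rows 10 were expressed and 33 were at 0, of 24 claudins 8 were expressed, led by CLDN7 (225 and 249.1 TPM) and CLDN4 (209 and 231 TPM), and of 12 CEACAM genes 5. AQP3 (75.9 and 89.2 TPM) made up 91.2% of the aquaporin transcripts, with 3 of 13 expressed. Of 15 carbonic anhydrases 5 were expressed, led by the hypoxia-linked CA9 (23.8 and 30.6 TPM) and CA12 (18.8 and 18 TPM). Of 30 integrin rows 13 were expressed (43.3%, against 53.8% of all coding rows), led by a row of ITGB1 joined with a snoRNA (286 and 226 TPM) and ITGA6 (94.7 and 72.9 TPM). Of 12 laminin rows 7 were expressed (58.3%, near that of all coding rows), led by LAMB1 (29 and 28.1 TPM). Of 44 collagen rows 4 were expressed, led by the hemidesmosome collagen COL17A1 on a joined row (26.1 and 26.8 TPM). Solute carriers were expressed for 168 of 347 rows (48.4%, near that of all coding rows), led by the mitochondrial carriers SLC25A3 (959 and 929 TPM) and SLC25A5 (842 and 825 TPM). Of 56 cytochrome P450 rows 12 were expressed, led by CYP3A5 (126 and 118 TPM) and CYP51A1 (67.8 and 52.4 TPM). Of 17 rows taken by the crystallin pattern 5 were expressed. They were CRYBG1 (22.5 and 19.5 TPM), CRYBG2 and CRYBG3, which enter by symbol, and CRYBB2 (1.87 and 1.54 TPM) and CRYGS (1.16 and 1.09 TPM).

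Transcription factor families were expressed unevenly. Of 521 zinc finger ZNF rows 327 (62.8%) were at 1 TPM or more, against 53.8% of all coding rows. At 10 TPM or more there were 64 (12.3%), against 31.5% of all coding rows. Their median of 2.18 TPM was near the 2.19 TPM of all coding rows. Of 50 FOX genes 18 were expressed, with FOXA1, FOXM1 (81.8 and 82.4 TPM) and FOXQ1 (55.8 and 56.7 TPM) highest. Of 19 SOX genes 4 were expressed, SOX9 and SOX4 (28.3 and 32.1 TPM) leading, and of 9 PAX genes only PAX8 (1.61 and 1.70 TPM). Of 17 KLF genes 9 were expressed (52.9%) and of 6 GATA genes 3 (50%), near the share of all coding rows. KLF5 alone held 72.0% of KLF transcripts and GATA6 held 73.9% of GATA transcripts.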

How the data were processed

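The siNT libraries of HT-29 cells were analysed, and the other 4 libraries of the series were not used. Fragments had been assigned to RefSeq genes by the authors with RSEM, and the submitters' processing notes name hg19. The strand setting, the aligner and the version of RSEM were not given in the sources used here. The deposited files hold expected counts (estimated fragments per gene, not normalized), TPM (corrected for length, the same sum in each library) and FPKM (corrected for length and library size). The labels name an RNeasy extraction and the study's methods TRIREAGENT. Poly(A) selection leaves out most small RNAs, and 1581 rows have an effective length of 0 and are always at 0.

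Total expected counts were 26263938 and 15998518. Of 27434 rows 627 join several genes (6.44% of counts in both libraries), and 193 rows without a symbol held 0.0457% and 0.0442%. Rows named by RefSeq accession (1380) and Entrez identifiers were matched to symbols with the reference tables. Levels, classes, shares, 44 gene lists and 41 families taken by symbol pattern were described with no test, since only 1 condition is involved. Named genes were the 25 rows of highest mean TPM, the 4 highest members of each list with defining members at or near 0, the 2 highest of each family, the genes at 10 TPM or more that lay furthest apart between the libraries, and HOX cluster genes. Further list members were named after their values were seen. Some list members are not reported here, though counts over lists include them. The members and lists were chosen with earlier results of these data known.

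Python 3.11.15 was used with pandas 2.3.3, and edgeR 4.0.16 and DESeq2 1.42.0 (R 4.3.3) only to scale rounded expected counts in an alternative. The spread calculation was run on simulated counts that vary by counting error alone. The libraries spread more than that, so the run checks the arithmetic and not the spread itself. GC content came from the longest GENCODE v29 transcript of each gene, for 94.6% of the genes with at least 10 counts in both libraries. Promoters are RefSeq's on GRCh38.p14 and their coordinates are not those of the authors' build. Alternatives were FPKM, expected counts scaled to library size, joined rows left out, other limits, pseudocounts of 0.1 and 1, other count filters, TMM and DESeq2 scaling, TPM from summed counts or without ribosomal proteins, motifs on the sense strand only, and each library alone.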

Additional observations from a re-analysis of the deposited data

How the results depend on the processing

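No paired analysis was possible because the values come from 1 condition and from no test. Counts of genes by level stayed within 1.5 times under every alternative run, except that 1875 rows reached the 100 limit in both libraries when expected counts scaled to library size replaced TPM (1073 by TPM). Taking each library alone gave 11524 to 11528 rows at 1 TPM, 6514 to 6658 at 10 TPM, 1114 to 1131 at 100 TPM and 11453 to 12056 at 0. Shares of TPM depend on the length correction. As shares of expected counts the 10 most abundant rows held 8.2%, the 100 most abundant 27.0% and ribosomal proteins 13.8%, and with joined rows left out these became 13.7%, 49.5% and 32.8%. Each library alone gave 12.6% to 12.9%, 48.1% to 49.2% and 33.7% to 34.6%. The SD of the log2 ratio was 0.29 with a pseudocount of 0.1, 0.23 with 1, 0.22 with 1 and no filter, and 0.23 for genes with at least 100 counts, and 0.31 with TMM or DESeq2 scaling. The number of genes at least 2-fold apart fell from 128 to 15 with a pseudocount of 1 and to 5 for genes with at least 100 counts. On the sense strand only, TATAAA was in 3.45% of promoters at 10 TPM or more, 13.5% at 0 and 7.71% of all, CCAAT in 22.3%, 19.3% and 20.8%, GGGCGG in 49.6%, 23.1% and 29.9%, and CCATAAA in 0.722%, 1.84% and 1.34%. Of the 100 promoters of highest mean, CCAAT was in 16% and GGGCGG in 43%.

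Members of the family groups at 1 TPM or more kept within 1.5 times under all alternatives. Each library alone gave 653 to 662 of 858 rows in a group that joins general machinery with the 521 ZNF rows. The counts were 51 to 52 in tissue-restricted, 237 to 240 in epithelial and 38 in the other transcription factor families. With each library alone, named genes of at least 1 TPM lay between 0.194 and 1.81 times their mean. Rescaling without ribosomal proteins multiplied the TPM of the other genes by 1.51 in replicate 1 and 1.53 in replicate 2. With 2 libraries an SD is itself imprecise, and levels under about 1 TPM rest on few counts.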

Other observations

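Beyond the protein-coding genes, hosts of small nucleolar RNAs led the lncRNAs. SNHG25 was listed at 1802 and 2089 TPM, but from 248 and 185 counts, so a short effective length sets this value. ZFAS1 followed at 1045 and 987 TPM from 11726 and 7003 counts, then a joined row of SNHG29 (628 and 727 TPM), SNHG1 (584 and 579 TPM), GAS5 (342 and 299 TPM), SNHG8 (251.4 and 284 TPM) and SNHG16 (246 and 233 TPM). DANCR was at 221 and 214 TPM and NORAD, which is bound by Pumilio proteins, at 187 and 155 TPM. LncRNA rows as a whole took 1.10% and 1.09% of TPM.

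Rows of the MTRNR2L group, nuclear copies of mitochondrial rRNA, varied widely. MTRNR2L2 was at 11770 and 10545 TPM, MTRNR2L9 at 2418 and 2587 TPM, a joined row of MTRNR2L8 at 1459 and 1262 TPM, and MTRNR2L1 at 712 and 846 TPM, while MTRNR2L5 and MTRNR2L7 had no count. Reads of near-identical sequence may be split among these rows.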
